A study of Homo sapiens with 21 samples.

Results

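The 10 genes described here belong to protein kinase A (PKA), its transcription factors and the salt-inducible kinases, in HepG2 cells exposed to 6 doses of caffeine. They are the PKA regulatory subunit genes PRKAR1A and PRKAR2A, the catalytic subunit genes PRKACA and PRKACB, the transcription factor genes CREB1 and CREM, the coactivator gene CRTC2, the kinase genes SIK1 and SIK2, and NR4A1. The genes were listed by symbol, not by their values, and all 10 were found among 37637 features of the count table and passed the filter on low counts. HepG2 is an established human liver cancer cell line, and a single line was studied. The cells were kept for 6 h in serum-free medium with caffeine at 0, 0.01, 0.1, 1, 10, 100 or 1000 µM, and poly(A) RNA was sequenced from 3 samples per dose, 21 in all. The submitters describe the samples of a dose as biological replicates but do not say how they were kept apart. The p-values thus set differences between groups against the spread between these samples, whose independence is not known. The study's text gives coumarin as the compound at 0 µM, whereas the sample labels give caffeine, and the labels were followed.

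PKA is held inactive by its regulatory subunits, which release the catalytic subunits when cAMP binds. Free catalytic subunits phosphorylate CREB1 at cAMP response elements in DNA, and CREM is a relative of CREB1 whose gene also makes ICER, a short repressor that CREB itself induces. CRTC2 is a coactivator of CREB that salt-inducible kinases keep in the cytoplasm and that PKA signalling sets free, a switch used by the liver to turn on glucose production in fasting. NR4A1 and SIK1 are known CREB targets. Caffeine blocks adenosine receptors and, at high concentrations, phosphodiesterases, the enzymes that degrade cAMP.

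The letters of the cAMP response element, TGACGTCA, and of its half-site, TGACG, were searched on both strands in RefSeq promoter windows (GRCh38.p14) of 300 bases, from 250 before to 50 after each start. Every full element also holds the half-site. Of the 10 genes 9 matched the table (not CRTC2), with 25 windows. The 4 stretches below are shown because they hold the full element or a pair of half-sites, in capitals, in genes whose levels are described next. In SIK1 both half-sites, and in SIK2 the second, read CGTCA, the half-site on the other strand.
PRKAR1A, chr17:68512370-68512399, + strand: gcgaggcgcatTGACGTCAgtagccgaacg
CREM, chr10:35195841-35195870, + strand: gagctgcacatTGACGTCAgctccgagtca
SIK1, chr21:43427247-43427276, - strand: cgctctggCGTCAaagcgaCGTCAatgggc
SIK2, chr11:111602383-111602412, + strand: ggcccccTGACGtcggcgcaCGTCAgcggc

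The full element was present in 2 of the 9 genes, PRKAR1A and CREM, each time in 2 overlapping windows of neighbouring starts. In CREM these windows, from chr10:35195600, are at internal starts, far from the gene's first base (35126846). The window from chr10:35126977, near that base, held half-sites only. In PRKAR1A they begin at chr17:68512129, far from the first base in RefSeq (68413623) but near that in GENCODE 29 (68511780). Counts per gene do not show which start was used. Among all 35116 windows 1.85% held it, and among all 27305 genes with a window 2.25% did. The half-site was in 7 of the 9 genes, against 28.4% of all genes. By window, which allows for the number of windows per gene, it was in 12 of 25 (48.0%), against 24.6% of all windows. Some of these windows overlap. PRKAR1A and CREM have 5 and 7 windows, so more letters were searched in them than in a gene with 1. The windows of CREB1 and NR4A1 held neither motif. A match is a run of letters and does not show that a factor bound there.

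Levels are given as CPM, a count relative to its library's total, after scaling by the trimmed mean of M-values (TMM). Divided by the length of the gene's exons in GENCODE 29, PRKAR1A was the most abundant of the 10 genes at 0 µM, with 38.1 ± 3.10 CPM per kb of exon (SD, n = 3). The table's IDs of 5 of the 10 genes carry a later version than this release, so lengths and exon overlaps are approximate. PRKACA followed with 11.9 ± 0.621, PRKAR2A with 10.5 ± 0.308 and SIK1 with 9.28 ± 0.234 CPM per kb. CREB1 was at 3.50 ± 0.340 and SIK2 at 2.85 ± 0.220 CPM per kb. NR4A1 (1.32 ± 0.0397) and PRKACB (1.30 ± 0.0192) were the lowest, and their ranges overlapped. In HepG2, most PKA catalytic transcript therefore came from PRKACA and most regulatory transcript from PRKAR1A among these 4 genes.

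Libraries held 28043623 to 40827833 counts, and the mitochondrial genome took 4.95% to 14.2% of them. All 8 hepatocyte markers were detected in every dose group, with a summed level of 21100 to 26901 CPM. Of the markers of other cells, COL1A2 was at 0, and COL1A1, DCN, PTPRC, CD3E, CDH5 and VWF reached at most 0.222 CPM. PDGFRB carried nearly all of the fibroblast sum, which ran from 4.11 to 4.75 CPM at 0 µM and from 8.30 to 8.84 at 1000 µM, and CD68 carried the leukocyte sum of 53.4 to 108 CPM. The 2 libraries farthest from the others of their dose are called below the libraries that stood apart. They were picked after seeing the data. Replicate 1 of 0.01 µM differed from the mean of the other 2 by 0.739 and replicate 3 of 1 µM by 0.641 (root mean square of log2 CPM over 17468 genes), where the remaining 19 libraries ran from 0.372 to 0.633. Replicate 1 of 1 µM, at 0.633, was nearly as far from its group as replicate 3 and was kept. Calls that change without both libraries that stood apart are given beside the result. In bulk RNA, fewer expressing cells and less RNA per cell cannot be told apart.

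Each dose was compared with the same 3 libraries at 0 µM, so the 6 comparisons share their controls. At 1000 µM CREB1, SIK2, PRKAR1A and NR4A1 rose, and none of the 10 fell (edgeR's quasi-likelihood test, adjusted p under 0.05). The 4 that rose are 4 of 10, where 20.6% of all 17468 genes tested rose and 41.2% changed in either direction. At an unadjusted p under 0.05, which 49.4% of all genes passed, there was 1 more, PRKACA, on the lower side, and DESeq2 called the 4 that edgeR called. The median log2 fold change of the 10 genes was 0.32, against -0.03 over all genes tested. Such shares and medians varied with exon length. Of genes with exons above 6865 bases, among them CREB1, SIK2 and NR4A1, 42% rose and the median was 0.26. Of those above 4386 and up to 6865 bases, among them PRKAR1A, 24.3% rose and the median was 0.04. The groups at 1000 and 0 µM did not overlap for 7 of the 10 genes, 5 higher and 2 lower, against 53.2% of all genes. SIK1, on the lower side, overlapped once the counts of its near-identical copy SIK1B were added.

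**Figure D1:**
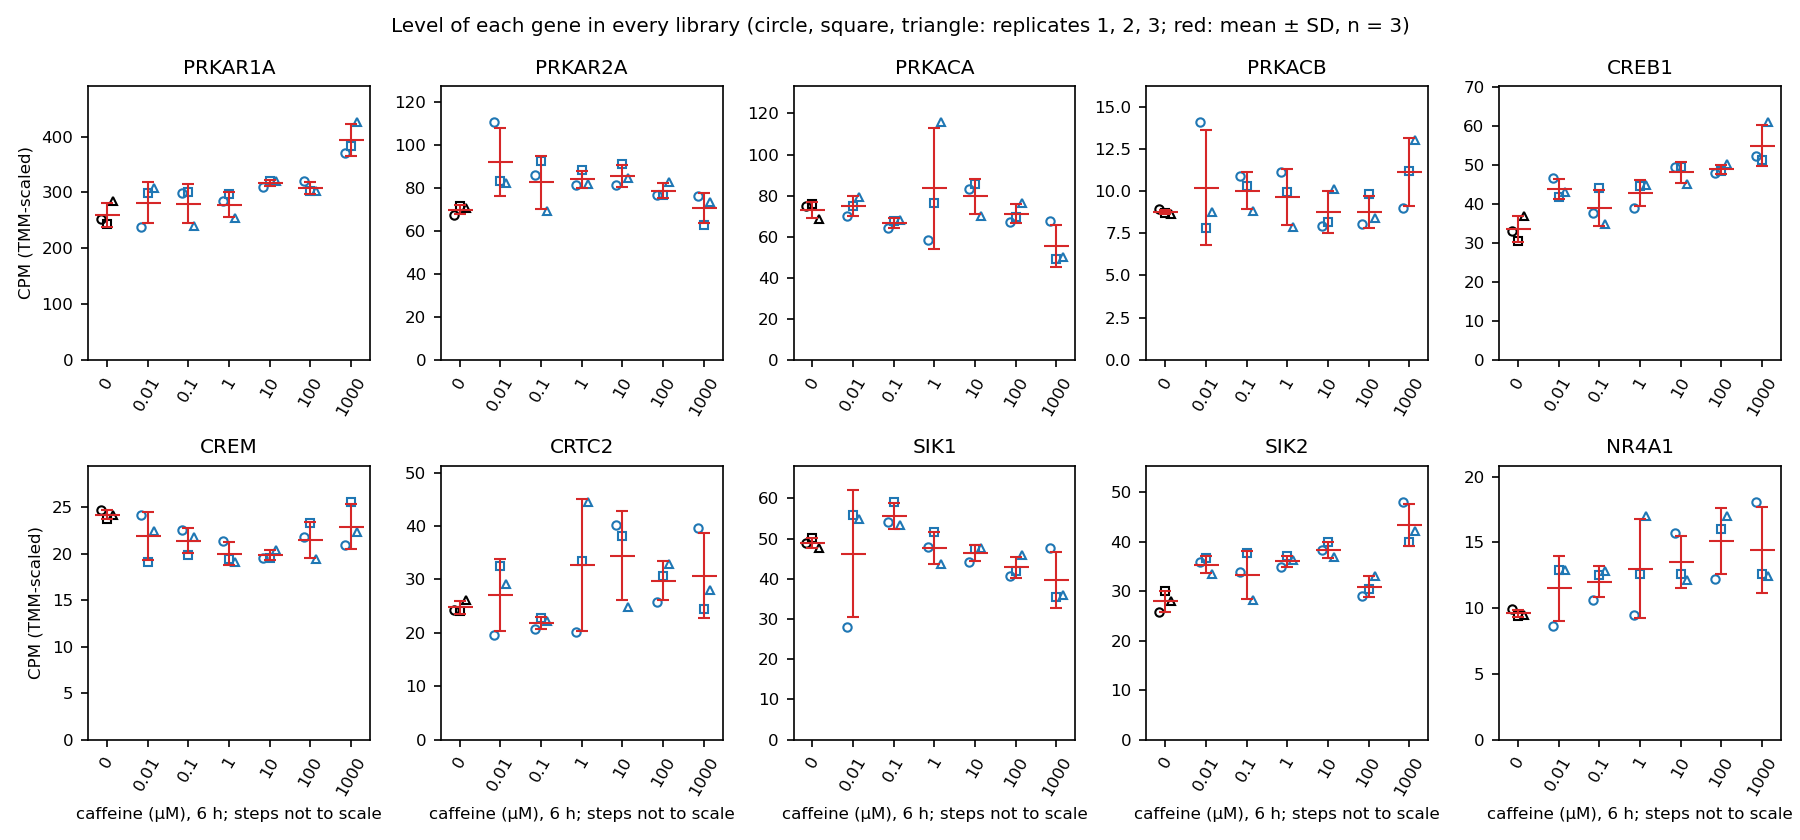
Level of each of the 10 genes (CPM after TMM scaling, axes from 0) in every library against the caffeine dose in µM, whose steps are not to scale. Circles, squares and triangles are replicates 1, 2 and 3, black at 0 µM, and red bars are the mean ± SD of 3 libraries. CREB1 and PRKAR1A are highest at 1000 µM, and PRKACA and SIK1 have their lowest group mean there.

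CREB1 (chr2:207529962-207605988, + strand, GRCh38.p14) encodes the factor that PKA phosphorylates. Its level was 33.1, 30.4 and 36.9 CPM at 0 µM, 46.5, 41.7 and 43.1 at 0.01 µM, 37.7, 43.9 and 34.8 at 0.1 µM, and 39.0, 44.6 and 44.9 at 1 µM. It was 49.5, 49.5 and 45.0 CPM at 10 µM, 47.8, 48.4 and 50.1 at 100 µM, and 52.3, 51.3 and 61.0 at 1000 µM. All libraries at every dose but 0.1 µM lay above all 3 controls, and at 0.1 µM replicate 3 lay within their range. At 1000 µM CREB1 rose by 0.71 ± 0.10 on the log2 scale (SE, a fold of 1.64, edgeR adjusted p = 3.4e-05). It also rose by 0.52 ± 0.10 at 10 µM (adjusted p = 0.00425), by 0.54 ± 0.10 at 100 µM (0.0128) and by 0.39 ± 0.10 at 0.01 µM (0.0409). Of the 10 genes edgeR called CREB1 alone at 0.01 µM, where 4.95% of all genes were called, and at 100 µM, where 6.02% were. DESeq2 called PRKAR2A and SIK2 as well at 0.01 µM, and NR4A1 as well at 100 µM. The call at 0.01 µM was lost without either 0 µM replicate 1 or 2 or 0.01 µM replicate 1 or 2 (adjusted p 0.0598 to 0.174), and without both libraries that stood apart (0.104). It was also lost with no filter (0.0529), the replicate block (0.0684), the mitochondrial share as a covariate (0.0649) and the 6 samples alone (0.105). The call at 100 µM was lost without 0 µM replicate 1 or 2 or 100 µM replicate 2 or 3 (adjusted p 0.0532 to 0.103).

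The neighbouring low doses gave no calls. At 0.1 and 1 µM, 0 of the 10 genes passed an adjusted p of 0.05 with edgeR, as did 0% of all genes. At an unadjusted p under 0.05, 2 of the 10 passed at 0.1 µM (CREB1 and SIK2), where 15.2% of all genes did, and 5 at 1 µM, where 22.8% did. DESeq2 called 0 of the 10 at 0.1 µM and CREB1 and SIK2 at 1 µM. With edgeR, SIK2 passed at 0.1 µM without its replicate 3 (adjusted p = 0.0413), and CREB1 (0.0380) and SIK2 (0.0452) passed at 1 µM without its replicate 1.

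SIK2 (chr11:111602449-111730855, + strand) encodes a salt-inducible kinase that phosphorylates CRTC2 in hepatocytes. Its level was 25.8, 30.1 and 27.9 CPM at 0 µM, 35.9, 36.6 and 33.4 at 0.01 µM, 33.9, 37.8 and 28.2 at 0.1 µM, and 34.9, 37.0 and 36.2 at 1 µM. At 10 µM it was 38.3, 40.0 and 36.8 CPM, at 100 µM 29.0, 30.5 and 33.1, and at 1000 µM 48.1, 39.9 and 42.1. The level was thus low at 100 µM between higher levels at 10 and 1000 µM, and the libraries at 100 µM overlapped the controls. SIK2 rose by 0.46 ± 0.10 on the log2 scale at 10 µM (edgeR adjusted p = 0.00623) and by 0.63 ± 0.10 at 1000 µM (0.000114), and its log2 fold change at 100 µM was 0.15 ± 0.10 (0.389). At 0.01 µM SIK2 passed with DESeq2 (0.0110), RLE size factors (0.0468) and without 0.01 µM replicate 3 (0.0490). From 100 to 1000 µM it rose by 0.49 ± 0.10 (adjusted p = 0.00335), with no overlap. Its exons share 150 bases with PPP2R1B (1311 to 2224 counts) on the opposite strand, and whether the counting used strand is not given in the sources used here. Exons of PRKAR1A, PRKAR2A, CREB1, CREM and NR4A1 also overlap other transcripts, which took at most 37 counts in any library.

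PRKAR1A (chr17:68413623-68551316, + strand), the abundant type I regulatory subunit, was at 253, 243 and 284 CPM at 0 µM, 239, 299 and 308 at 0.01 µM, 299, 301 and 239.9 at 0.1 µM, and 285, 297 and 254 at 1 µM. It was at 310.4, 321 and 320.0 CPM at 10 µM, 320.1, 303 and 302 at 100 µM, and 371, 384 and 427 at 1000 µM. The libraries at 10 and 100 µM lay above all controls, and those at 1000 µM lay above all 18 others. PRKAR1A rose by 0.60 ± 0.11 on the log2 scale at 1000 against 0 µM (edgeR adjusted p = 0.000290). Its rise of 0.35 ± 0.11 against 100 µM (adjusted p = 0.0327) was lost without any replicate of 100 µM or replicate 3 of 1000 µM (0.0531 to 0.160), with no filter (0.103) and with the replicate block (0.0521). At 10 µM its log2 fold change missed the threshold, but it passed with DESeq2 (adjusted p = 0.0294), the mitochondrial covariate (0.0323), the 6 samples alone (0.0200), or without 0 µM replicate 3 (0.0438) or both libraries that stood apart (0.0190). Against 100 µM, PRKAR1A and SIK2 were the 2 of 10 genes called, beside 14.7% of all genes.

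PRKAR2A (chr3:48744591-48847874, - strand), a type II regulatory subunit, followed another course. Its level was 67.6, 71.5 and 70.7 CPM at 0 µM and 76.2, 62.9 and 73.5 at 1000 µM, which overlap, with a log2 fold change of 0.02 ± 0.12. Group means between these doses ran from 78.8 ± 3.47 CPM at 100 µM to 92.2 ± 16.0 at 0.01 µM (SD, n = 3), and replicate 1 of 0.01 µM, a library that stood apart, was the highest at 111. At 0.01, 1, 10 and 100 µM all 3 libraries lay above all controls, and edgeR's adjusted p was 0.0529 to 0.372. At 0.01 µM PRKAR2A passed with DESeq2 (adjusted p = 0.0103), with RLE size factors (0.0459) and without 0.01 µM replicate 3 (0.0391). At 10 µM it passed with the 6 samples alone (0.0144) and without both libraries that stood apart (0.0265).

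PRKACA (chr19:14091688-14117762, - strand), the main catalytic subunit, was at 74.8, 75.7 and 68.7 CPM at 0 µM and at 67.4, 48.9 and 49.9 at 1000 µM. All 3 libraries at 1000 µM lay below all controls, replicate 1 by a small margin. The log2 fold change was -0.40 ± 0.17 and missed the threshold (edgeR adjusted p = 0.0748). Without 1000 µM replicate 1 it was -0.54 (adjusted p = 0.0298), and without both libraries that stood apart it was -0.37 (0.0149). It also passed with the 6 samples alone (0.0372). Against 100 µM, PRKACA passed without both libraries (-0.34, adjusted p = 0.0435) and with the mitochondrial covariate (-0.39, 0.0399). The highest PRKACA level, 116 CPM, was in replicate 3 of 1 µM, which also had the highest mitochondrial share (14.2%), and with that share as a covariate the log2 fold change at 1000 µM was -0.50 (adjusted p = 0.00494). PRKACB (chr1:84078079-84238498, + strand), the second catalytic subunit, was at 8.90, 8.72 and 8.65 CPM at 0 µM and at 9.01, 11.2 and 13.0 at 1000 µM. Its groups did not overlap, but its log2 fold change of 0.34 ± 0.19 missed the threshold (adjusted p = 0.169). Without both libraries that stood apart it was 0.36 (adjusted p = 0.0400). This was the only 1 of 9 alternative settings that passed, and over them the log2 fold change ran from 0.02 to 0.37 (adjusted p 0.0400 to 0.919). It did not pass when any 1 of the 6 libraries was left out.

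The counts of the 4 subunit genes were also compared within each library, which needs no scaling between libraries. The ratio of regulatory (PRKAR1A plus PRKAR2A) to catalytic counts (PRKACA plus PRKACB) was 3.84, 3.73 and 4.59 at 0 µM and 5.85, 7.44 and 7.95 at 1000 µM. Means between these doses ran from 4.15 ± 1.30 at 1 µM to 4.86 ± 0.375 at 100 µM (SD, n = 3). The libraries at 1000 µM lay above all 18 others. The log2 ratio differed among the 7 groups (permutation test of F, p = 0.00940, adjusted over the 2 ratios tested 0.0188). It did not pass without 1000 µM replicate 2 (adjusted permutation p = 0.101) or 3 (0.146), or with the replicate block (0.0596), and among the 6 groups without 1000 µM adjusted p was 0.829. When each gene's log2 CPM was averaged, so that each subunit weighed the same, adjusted p was 0.114. The ratio of PRKACB to PRKACA was 0.120 ± 0.00539 at 0 µM and 0.208 ± 0.0662 at 1000 µM, with p = 0.292 among the groups (permutation test), and p = 0.0431 (adjusted) without both libraries that stood apart.

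**Figure D2:**
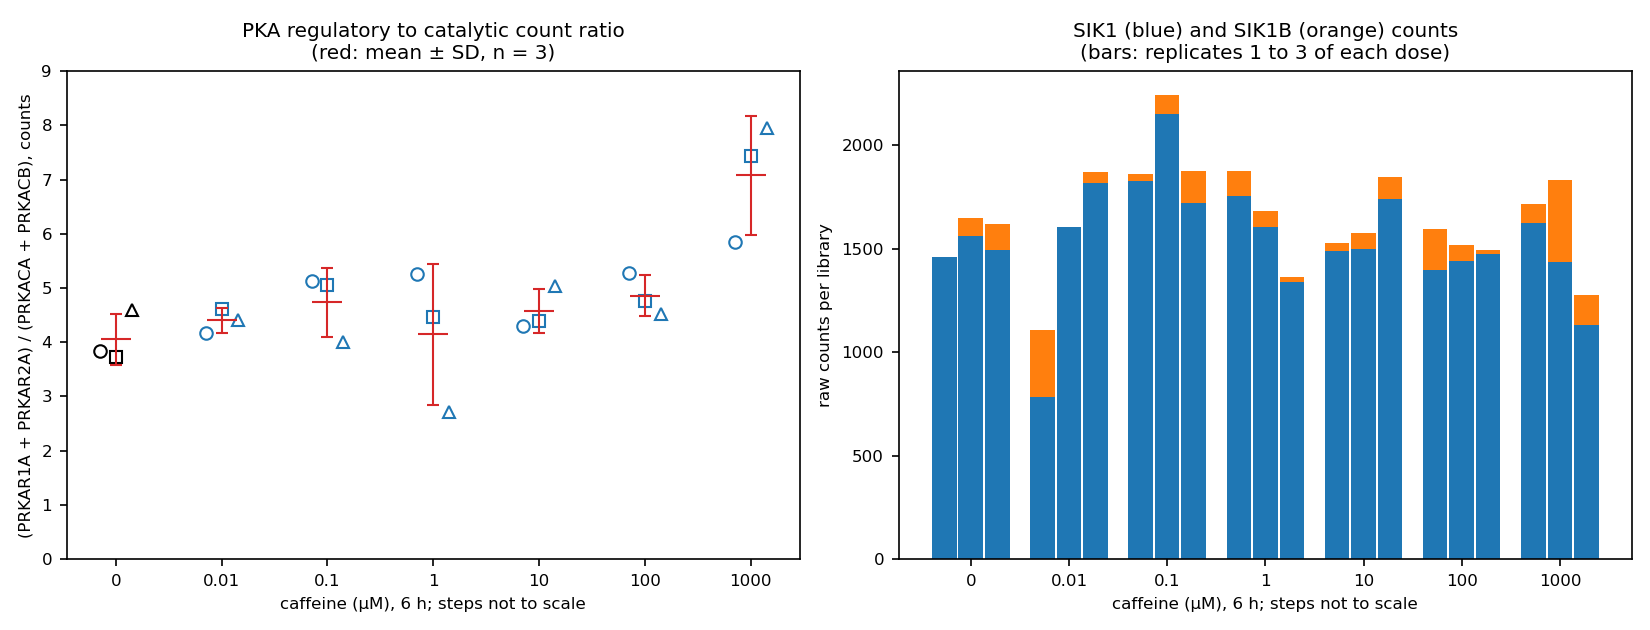
Left, the ratio of PRKAR1A plus PRKAR2A to PRKACA plus PRKACB counts in each library against the dose in µM (steps not to scale). PRKAR1B is not included, and red bars are the mean ± SD of 3 libraries. Right, stacked raw counts of SIK1 (blue) and its copy SIK1B (orange) per library, where SIK1B takes 29.3% of the sum in replicate 1 of 0.01 µM.

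SIK1 (chr21:43414483-43427131, - strand), a kinase of the same family that CREB induces, was at 48.8, 50.2 and 47.7 CPM at 0 µM, 40.7, 42.0 and 45.8 at 100 µM, and 47.7, 35.4 and 35.9 at 1000 µM. At 0.1 µM it was at 54.2, 59.2 and 53.3 CPM, above all controls, and at 10 µM at 44.1, 47.4 and 47.7. The libraries at 10, 100 and 1000 µM lay below all controls, replicate 3 of 10 µM and replicate 1 of 1000 µM beside the lowest control. The log2 fold change at 1000 µM was -0.30 ± 0.18 and missed the threshold (edgeR adjusted p = 0.182). The lowest level, 28.0 CPM, was in replicate 1 of 0.01 µM, a library that stood apart. Without it the test among the 7 groups passed for SIK1 (adjusted p = 0.00902, against 0.345 with it), as did a downward slope of -0.07 per dose step (0.00338, against 0.120 with it). In the comparison of 1000 with 0 µM, adjusted p was 0.0249 without both libraries that stood apart.

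A near-identical copy, SIK1B, lies elsewhere on the chromosome (chr21:6111131-6123778, + strand), and counting can divide reads between the copies. SIK1B took 0 to 395 counts per library, and its share of the sum was 29.3% in replicate 1 of 0.01 µM and 21.5% in replicate 2 of 1000 µM. In the other 19 libraries the share was at most 12.4%. The summed level of both was 48.8, 53.1 and 51.7 CPM at 0 µM (51.2 ± 2.19, SD, n = 3) and 50.3, 45.1 and 40.4 at 1000 µM (45.3 ± 4.96). At 10 µM it was 45.2, 49.9 and 50.6 CPM. Unlike SIK1 alone, the sum overlapped the controls at 10 and 1000 µM. The log2 fold change of the sum was -0.18, and it missed the threshold (edgeR adjusted p = 0.237). SIK1 values alone are uncertain for this reason, and the sum was not tested without the libraries that stood apart.

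CREM (chr10:35126846-35212958, + strand) fell at 10 µM, the only fall past the threshold against 0 µM among the 10 genes. Its level there was 19.5, 19.5 and 20.4 CPM against 24.7, 23.7 and 24.2 at 0 µM, with no overlap. It fell by 0.29 on the log2 scale (SE 0.10, edgeR adjusted p = 0.0460), and the call was lost when any of the 6 libraries was left out (0.0706 to 0.138). It was also lost with RLE size factors (0.0562), no filter (0.214), the replicate block (0.0645) and the mitochondrial covariate (0.0773). Groups at 0.1, 1 and 100 µM also lay below all controls without passing the threshold, and at 1000 µM the level was 20.9, 25.6 and 22.3 CPM, around the controls. At 10 µM 3 of the 10 genes changed, CREB1 and SIK2 upward and CREM downward, against 22.0% of all genes. Counts per gene cannot separate ICER from the longer CREM transcripts. CRTC2 (chr1:153947675-153958612, - strand), the coactivator, had the largest SE of the 10 genes at 1000 µM. Its level ran from 19.6 to 44.6 CPM over the 21 libraries, with 20.1, 33.5 and 44.6 at 1 µM and 39.7, 24.5 and 28.0 at 1000 µM. No dose passed the threshold for CRTC2, and at 1000 µM its log2 fold change was 0.31 ± 0.25 (adjusted p = 0.338).

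NR4A1 (chr12:52022832-52059503, + strand), an orphan nuclear receptor induced by cAMP in liver, was at 9.93, 9.40 and 9.48 CPM at 0 µM. Its level was 15.7, 12.6 and 12.1 CPM at 10 µM, 12.2, 16.0 and 17.0 at 100 µM, and 18.1, 12.6 and 12.4 at 1000 µM. All of these lay above the controls, and the SD within a dose was 0.289 CPM at 0 µM and 1.98 to 3.26 at these 3 doses. NR4A1 rose by 0.58 ± 0.21 on the log2 scale at 1000 µM (edgeR adjusted p = 0.0309). The call was lost without any 1 control (adjusted p 0.0606 to 0.0811) or without 1000 µM replicate 1 (0.138). At 100 µM the log2 fold change was as large, 0.65 ± 0.21, with an adjusted p of 0.0653, or 0.0193 without both libraries that stood apart, 0.0247 with DESeq2, 0.0332 with no filter and 0.0113 with the 6 samples alone. At 10 µM NR4A1 passed without both libraries (0.0265) and with the 6 samples alone (0.0148).

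**Figure D3:**
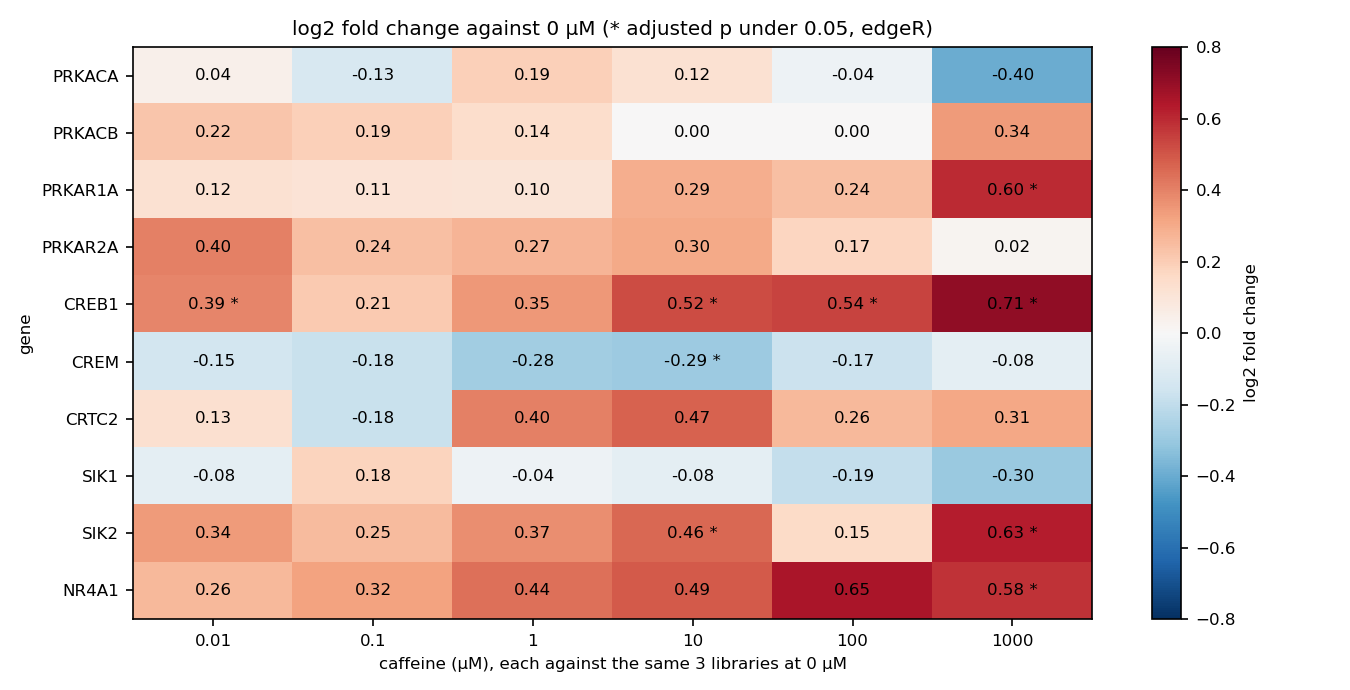
Log2 fold change of each of the 10 genes (vertical) at each dose of caffeine in µM (horizontal) against the same 3 libraries at 0 µM, with the value in each field and an asterisk where edgeR's adjusted p is under 0.05. CREB1 carries an asterisk at 0.01, 10, 100 and 1000 µM, and CREM at 10 µM has the only negative value with one.

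Over the whole series, 3 of the 10 genes differed among the 7 groups, CREB1 (edgeR adjusted p = 0.000827), SIK2 (0.00259) and PRKAR1A (0.00484), against 28.1% of all genes. Without both libraries that stood apart, PRKACA (0.0370), NR4A1 (0.0372) and SIK1 (0.00621) passed too, and DESeq2 added PRKAR2A (0.0257). Without 1 µM replicate 1 PRKACA passed (0.0180), and without 0.1 µM replicate 3 PRKAR2A did (0.0336). With the offset for exon length and GC content used further on, CREB1 (0.0818) and PRKAR1A (0.170) did not pass. A slope over the ranks of the doses, counted from 0 to 6, was positive and past the threshold for 4 of 10 genes, where 14.5% of all genes rose. The slope was 0.10 ± 0.02 log2 units per step for CREB1 (adjusted p = 0.000265), 0.10 ± 0.03 for NR4A1 (0.00833), 0.08 ± 0.02 for PRKAR1A (0.000963) and 0.06 ± 0.02 for SIK2 (0.0194). The SIK2 slope did not pass without 0 µM replicate 1 or 1000 µM replicate 1 or 3 (adjusted p 0.0516 to 0.0743). Without the 3 libraries at 1000 µM, CREB1 alone differed among the groups, and CREB1 and NR4A1 kept a slope past the threshold. The NR4A1 slope did not pass with the 18 treated samples alone (adjusted p = 0.149) or with dose on the linear scale (0.298), and the SIK2 slope did not with the 18 treated samples alone (0.309). On the linear scale PRKACA passed with a negative slope (0.0172).

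The 1000 µM group was also set against the mean of 0.01, 0.1, 1 and 10 µM. CREB1 (0.34 ± 0.08 on the log2 scale, edgeR adjusted p = 0.00231), PRKAR1A (0.45 ± 0.08, 0.000425) and SIK2 (0.28 ± 0.08, 0.0114) were higher, and PRKACA (-0.45 ± 0.14, 0.0211) and PRKAR2A (-0.28 ± 0.09, 0.0300) were lower. These are 5 of 10 genes, against 30.7% of all genes. PRKACA lost its call without 1000 µM replicate 2 or 3 (adjusted p = 0.133 and 0.137). PRKAR2A lost it without replicate 1 or 2 of 0.1 µM, replicate 2 of 1 µM, or replicate 2 or 3 of 1000 µM (0.0536 to 0.227), and with no filter (0.0655), and SIK2 without replicate 1 of 1000 µM (0.0775). SIK1, with -0.30 ± 0.14 and an adjusted p of 0.121, passed without replicate 1 of 0.01 µM (-0.37, 0.00206) or replicate 1 of 1000 µM (-0.44, 0.0495), and without both libraries that stood apart (-0.37, 0.00150). These SIK1 values leave out reads counted for SIK1B, which took 21.5% of the sum in replicate 2 of 1000 µM. With the offset for exon length and GC content CREB1 fell short (0.10, adjusted p = 0.385).

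Fold changes at 1000 µM went with the length of the exons over all genes. Of genes with exons of up to 2586 bases, 5.86% rose and 33.3% fell, and of those above 6865 bases, 42% rose and 9.1% fell. CREB1 (9575 bases), SIK2 (9796 bases) and NR4A1 (7295 bases) are among the longer genes, and PRKAR1A has 6821 bases. PRKACB (6730), PRKAR2A (6644) and PRKACA (6144) are about as long as PRKAR1A and were not called, nor were CREM (5699), SIK1 (5268) and CRTC2 (3612). Of genes above 4386 and up to 6865 bases, 24.3% rose and 16.8% fell. Whether the rises came from exon length was not tested. With an offset for exon length and GC content in each library, the log2 fold change at 1000 µM was 0.29 for CREB1 (edgeR adjusted p = 0.0376), 0.31 for PRKAR1A (0.0467), 0.43 for SIK2 (0.000103) and 0.63 for NR4A1 (0.00152). All 4 passed with this offset. Without it the values were 0.71 for CREB1, 0.60 for PRKAR1A, 0.63 for SIK2 and 0.58 for NR4A1. With the offset CRTC2 (0.56, adjusted p = 0.0327) also rose, and CREM (-0.30, 0.0117) and PRKACA (-0.40, 0.0422) fell. CREB1 did not pass at 0.01 µM (0.489) or 100 µM (0.0674), nor did PRKAR1A against 100 µM (0.302). NR4A1 passed at 10 µM (0.0493) and 100 µM (0.0154), and CRTC2 at 10 µM (0.0448). NR4A1 (0.0371) also passed against the mean of the 4 lower doses, and NR4A1 (0.0190) and PRKAR2A (0.0205) among the 7 groups.

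Other genes of the pathway, in lists that leave out the 10 genes, were compared at 1000 against 0 µM, where 41.2% of all genes changed and 20.6% rose. Of genes with exons above 6865 bases 42% rose, with a median log2 fold change of 0.26. The lists were not matched for exon length. Of 9 tested genes of cAMP production and sensing, 4 rose and 1 fell, with a median log2 fold change of 0.14 (all genes -0.03). The adenylate cyclase gene ADCY7 rose from 8.66, 8.92 and 7.91 CPM to 15.5, 16.6 and 16.6, a log2 fold change of 0.93 ± 0.15 (edgeR adjusted p = 0.000134). The cyclases ADCY6 (0.58 ± 0.11) and ADCY9 (0.50 ± 0.12) rose too, and GNAS, which encodes the stimulatory G protein subunit, fell by 0.30 on the log2 scale (SE 0.08, adjusted p = 0.00550), a call lost with no filter (0.0992). ADCY7 was at 8.97, 9.16 and 9.26 CPM at 100 µM, just above the controls, with a log2 fold change of 0.10 ± 0.15, whereas GNAS was already lower at 10 µM (-0.37 ± 0.08, adjusted p = 0.00542). ADCY9 was already higher at 10 µM (0.52 ± 0.12, adjusted p = 0.00809). At 1000 µM against the mean of 0.01, 0.1, 1 and 10 µM, ADCY9 (0.08 ± 0.10, adjusted p = 0.566) and GNAS (-0.05 ± 0.06, 0.550) did not pass.

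Of 12 other PKA subunits, PKA inhibitors and anchoring proteins, 5 rose and 2 fell (median 0.37). Of all genes, not matched for exon length, 41.2% changed and 20.6% were higher. The anchors AKAP12, which rose by 1.13 ± 0.14 on the log2 scale (edgeR adjusted p = 7.1e-06), AKAP9 (0.92 ± 0.17) and AKAP1 (0.66 ± 0.13) were the highest of those that rose. AKAP12 went from 57.5, 60.3 and 68.1 CPM at 0 µM to 98.0, 104 and 118 at 100 µM and 145, 118 and 145 at 1000 µM. AKAP9 was already higher at 10 µM (0.78 ± 0.17, adjusted p = 0.00526). At 1000 µM against the mean of 0.01, 0.1, 1 and 10 µM it missed the threshold (0.29 ± 0.13, adjusted p = 0.0876). The regulatory subunit gene PRKAR1B fell by 0.77 (SE 0.14, adjusted p = 0.000330), opposite in direction to PRKAR1A, from 76.9, 78.6 and 68.6 CPM to 48.1, 43.7 and 39.8. PKIG, which encodes an inhibitor of free catalytic subunits, fell by 0.50 (SE 0.13, adjusted p = 0.00651), and with the offset for length and GC content its adjusted p was 0.0560. PRKAR2B, PRKACG and PKIA had at most 3 counts in any library and were not tested.

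Of 16 relatives and partners of CREB and the SIKs, 7 rose and 4 fell (median 0.39). The same 41.2% and 20.6% of all genes, not matched for exon length, changed and rose. SIK3, the third salt-inducible kinase gene, rose by 1.03 ± 0.15 on the log2 scale (edgeR adjusted p = 5.4e-05), from 18.7, 24.0 and 18.7 CPM to 46.0, 34.7 and 44.4. EP300 (0.98 ± 0.21) and CREBBP (0.92 ± 0.23), which encode acetyltransferase coactivators of CREB, rose as well. Both were already higher at 10 µM (1.13 ± 0.21 and 1.01 ± 0.23, edgeR adjusted p = 0.00374 and 0.00733), and EP300 also at 0.01 µM (0.85 ± 0.21, 0.0392). At 1000 µM against the mean of 0.01, 0.1, 1 and 10 µM neither passed (0.11 ± 0.16, adjusted p = 0.633, and 0.20 ± 0.18, 0.430). PPP1CA, a catalytic subunit of protein phosphatase 1, fell by 0.77 (SE 0.16, adjusted p = 0.000992), and STK11, the kinase that activates the SIKs, fell by 0.53 (SE 0.14, adjusted p = 0.00509). STK11 was already lower at 10 µM (-0.49 ± 0.14, adjusted p = 0.0183), and 1000 µM did not differ from the mean of 0.01, 0.1, 1 and 10 µM (-0.14 ± 0.11, 0.355). STRADA, a partner of STK11, fell by 0.31 (SE 0.12, adjusted p = 0.0482), a call lost without any 1 of the 6 libraries (0.0608 to 0.171), with RLE size factors (0.0672), DESeq2 (0.0703), no filter (0.137) and the replicate block (0.0634).

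Of 16 CREB target genes, 6 rose and 2 fell (median 0.26). These are 8 of 16, where 41.2% of all genes changed and 20.6% rose, so the share that changed is near the background. PPARGC1A, a coactivator of gluconeogenic genes, rose by 1.09 ± 0.17 on the log2 scale (edgeR adjusted p = 9.8e-05), from 6.69, 7.69 and 7.69 CPM to 15.4, 13.0 and 18.6. KLF4 (1.17 ± 0.22), a transcription factor gene, and TAT (0.72 ± 0.13), the tyrosine aminotransferase gene, rose at 1000 µM and had log2 fold changes of -0.25 and -0.16 at 100 µM. BTG2, an antiproliferative gene, fell by 1.35 (SE 0.10, adjusted p = 6.9e-08), from 19.2, 22.6 and 19.3 CPM to 8.13, 8.15 and 7.58. PER1, a clock gene, fell by 0.43 (SE 0.16, adjusted p = 0.0360), a call lost without 0 µM replicate 1 or 2, or 1000 µM replicate 2 or 3 (0.0652 to 0.179), with no filter (0.0742), with the 6 samples alone (0.0577) and with the offset for length and GC content (0.0749). BTG2 and PER1 thus went the other way from most of the targets that changed. NR4A2 and AREG, further targets, had at most 4 and 0 counts in any library and were not tested.

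**Figure D4:**
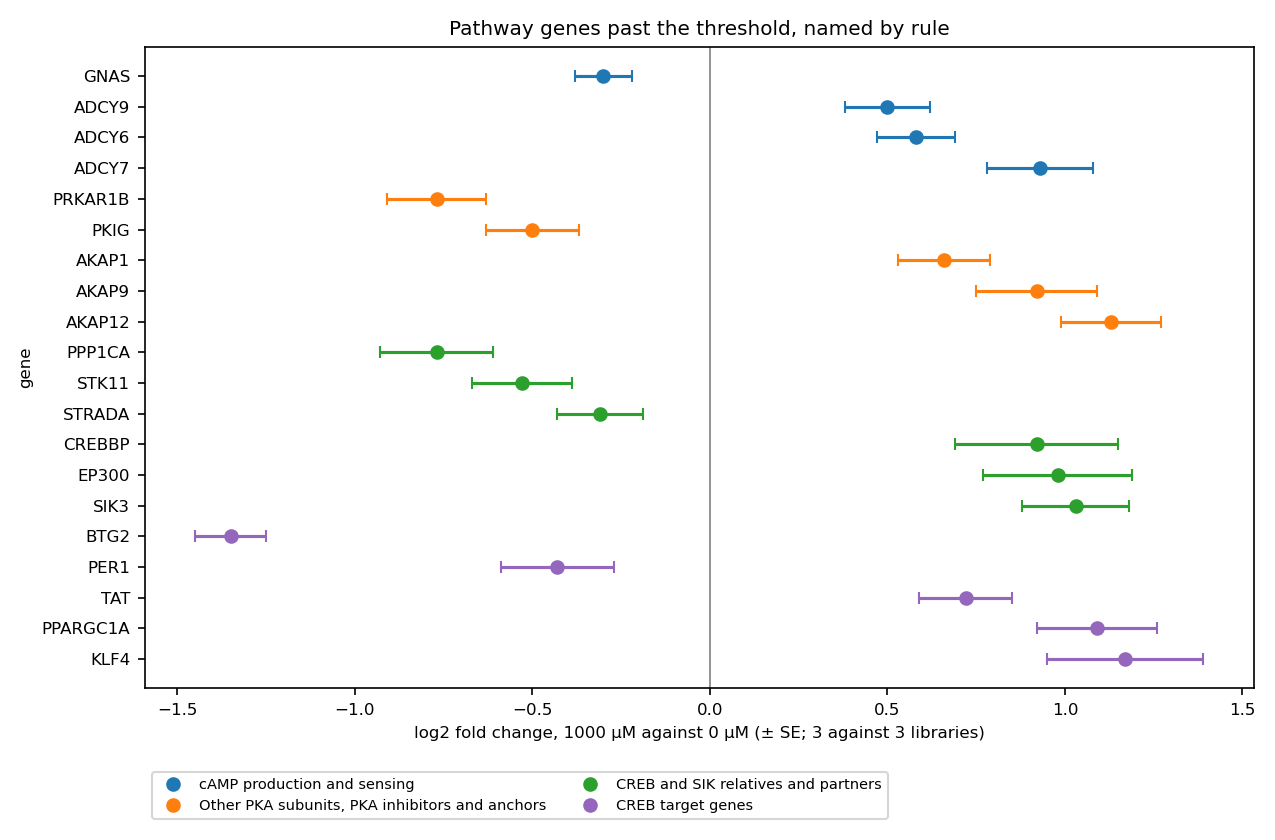
Log2 fold change (± SE) at 1000 against 0 µM for other genes of the pathway that passed an adjusted p of 0.05, up to 3 higher and 3 lower per list, from 3 against 3 libraries. AKAP12, KLF4, PPARGC1A and SIK3 lie above 1, and BTG2 lies lowest at -1.35.

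The genes whose pattern over the 21 libraries was closest to each of the 3 genes with the smallest p among the groups were found by the root mean square difference of centred log2 CPM, among 12433 genes. VEZT (0.0699), BCLAF1 (0.0723) and ARID4B (0.0749) were closest to CREB1, where the median gene differed by 0.315. TCF20 (0.0646), COPA (0.0713) and LAMC1 (0.0753) were closest to SIK2. CCNJ (0.0779), SERINC3 (0.0825) and UBASH3B (0.0861) were closest to PRKAR1A. Of the 10 genes, PRKAR1A came nearest to CREB1 (0.156, rank 618), and CREB1 nearest to SIK2 (0.173, rank 1002). CREB1 was also the nearest of the 10 to PRKAR1A (0.156, rank 572). Many other genes were thus closer to each of these 3 than the rest of the 10 were.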

How the data were processed

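Poly(A) RNA of 21 HepG2 samples was sequenced. The authors deposited one table of raw gene counts, whole numbers that were not normalized. HISAT2, DESeq2 and the build GRCh38 are named in the submitters' processing notes, and the counting program, its annotation and its use of strand are not given in the sources used here. Of the per-sample columns 21 matched no sample label and were not used. Genes were matched to symbols by Ensembl ID, exon lengths and overlaps came from GENCODE 29 (of 32329 IDs found there, 10156 carry a later version in the table), and gene positions from RefSeq (GRCh38.p14).

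Counts were tested with edgeR 4.0.16 (R 4.3.3): quasi-likelihood test, TMM scaling, expression filter at a minimum count of 10, 1 fit over 7 groups with 14 residual degrees of freedom, and Benjamini-Hochberg adjustment over 17468 genes at 0.05. SE was taken as the absolute log2 fold change over the root of F. The alternatives included DESeq2 1.42.0. Ratios within libraries were tested with 100000 permutations. Scripts were tested on simulated data. A total of 3 counts, the limit a count of 0 allows, is 0.0735 to 0.107 CPM. No molecular identifiers are stated, so this covers counting error only.

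All 10 genes and SIK1B are named. Of each pathway list, up to 3 higher and 3 lower genes are named, the largest changes past the threshold at 1000 µM with a mean of at least 1 CPM. Those named for counts too low to test were picked after their values were seen. The 10 genes and all lists were chosen with earlier results of these data known.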

Additional observations from a re-analysis of the deposited data

How the results depend on the processing

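Counts of the 10 genes past the threshold depended on the setting, and the main changes were as follows. At 0.01 µM (1 gene) the count was 3 with RLE size factors or DESeq2, and 0 with no filter on low counts, with the replicate block, with the mitochondrial share as a covariate, with the 6 samples alone, with the GC and length correction, or with both libraries that stood apart left out. At 1 µM DESeq2 gave 2 instead of 0. At 10 µM (3 genes) the 6 samples alone gave 6, the GC and length correction 5, and leaving out both libraries that stood apart 6, whereas RLE size factors, no filter and the replicate block gave 2 each, without CREM, and the mitochondrial covariate gave 3 with PRKAR1A in place of CREM. At 100 µM (1 gene) DESeq2, no filter and leaving out both libraries gave 2 each, and the 6 samples alone gave 3. At 1000 µM (4 genes) the GC and length correction gave 7, as did leaving out both libraries, and all 4 genes passed in each. Against 100 µM (2 genes) no filter, the replicate block and the GC and length correction gave 1 each. The mitochondrial covariate and leaving out both libraries gave 3 each there, with PRKACA added. Among the 7 groups (3 genes) the count was 1 without the 3 samples at 1000 µM and 6 without both libraries. With the GC and length correction it was again 3, but of these only SIK2 was shared with the original 3. For the slope (4 genes) it was 2 without the 3 samples at 1000 µM and 2 with the 18 treated samples alone.

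Leaving out each replicate in turn gave 0 to 3 genes for 0.01 µM, between 0 and 1 for 0.1 µM, between 0 and 2 for 1 µM, 2 or 3 for 10 µM, 0 or 1 for 100 µM, 3 or 4 for 1000 µM, 1 to 2 against 100 µM, 3 to 6 against the mean of 4 doses, 3 to 4 among the groups and 3 to 5 for the slope. For the ratio of regulatory to catalytic counts the adjusted permutation p ran from 0.00374 to 0.146. It was 0.829 without the 3 samples at 1000 µM, 0.114 for the mean of log2 CPM and 0.0596 with the replicate block. The ratio of PRKACB to PRKACA passed without both libraries (0.0431). No called value changed sign in any of these settings. The causes were not tested.

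Same-numbered libraries deviated together in 11 of 63 pairs (r over 0.1, median 0.0199), and 5 of 21 libraries were closest to their own number, so the numbers were not taken to pair the samples. Both the GC and length correction, for which 89.8% of tested genes had values, and leaving out both libraries were chosen after seeing the data. Replicate 1 of 1 µM, at 0.633, stood nearly as far from its group as the replicate left out.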
